A study of Pseudotsuga menziesii with 83 samples.

Results

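Needles of Douglas-fir (Pseudotsuga menziesii) from 2 Washington seed sources, the Cascades (WACA) and the Coast (WACS), were compared on 6 May, shortly after most of the trees had broken bud. Of the 83 samples in the series, 47 have a column in the deposited count table, and 8 of these were collected on this date from the 2 sources, 4 from Cascades trees and 4 from Coast trees. Members were chosen by source and date alone. All trees grew together in a common garden in southern Oregon, and no treatment was applied. The needles were mature ones, grown in the preceding season.

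The Cascades trees were trees 05 and 39 of one family and trees 08 and 38 of another, both from seed of high elevation. The Coast trees were trees 10 and 69 of one family and trees 12 and 68 of another, both from seed of low elevation. Trees of 1 family are half-siblings, so each source is represented by 2 families and the 4 trees of a source are not independent draws from it. Tree 10 of the Coast source was still labelled pre-budbreak, and the other 7 trees were labelled post-budbreak. All 8 libraries were sequenced on flowcell fc1025, with 1 tree of every family on lane 3 (trees 05, 08, 10 and 12) and 1 on lane 4 (trees 39, 38, 69 and 68). The 4 Oregon (ORSI) trees of the same date are given after the Washington trees, as a further source.

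In a common garden the growing site is the same for all trees, which is why such gardens are used to compare seed sources. Douglas-fir from sites of different climate is known to differ in the timing of growth and dormancy and in cold hardiness. Around budbreak the older needles are the main photosynthetic organ while the new shoots are still expanding. The question of the comparison was how far the transcriptome of these older needles differs by seed source. The features of the count table carry numbers and no gene names, so no function can be given for any of them, and the labelled tissue could not be checked against marker genes.

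Total counts in the deposited table lay between 11293737 and 11301459 per library, because a step that is not stated had brought them to nearly 1 depth. The study's supplementary list gives unequal read numbers for these 8 libraries, so the totals do not show the sequencing depth. Features with at least 1 count numbered 47973, 46821, 46710 and 46872 in Cascades trees 05, 39, 08 and 38, and 47367, 44879, 46672 and 47530 in Coast trees 10, 69, 12 and 68. The means were 47094 ± 590 in Cascades trees and 46612 ± 1214 in Coast trees (SD, n = 4 each), a difference that did not pass an exact permutation test (two-sided, p = 0.629, adjusted p = 0.8 over 2 such tests). The smallest p this design allows is 0.0286. The 50 most abundant features took 25.6, 32.2, 30.3 and 31.3% of all counts in Cascades trees 05, 39, 08 and 38, and 20.05, 36.1, 29.6 and 30.5% in Coast trees 10, 69, 12 and 68. Both Coast extremes, trees 10 and 69, came from the same family, and the groups overlapped (exact permutation test, two-sided, p = 0.8, adjusted p = 0.8). Neither the number of features expressed nor their concentration in a few abundant ones separated the sources at this number of trees.

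Very few features were called as different between the 2 sources, which with 4 trees each does not show how many differ. Of 28359 features with a median count over 5 in the 8 libraries, edgeR's quasi-likelihood test with Benjamini-Hochberg adjustment called 4 at an adjusted p of at most 0.01, which is 0.0141% of those tested. Among them 2 were higher and 2 were lower in Cascades trees. With 0.05 as the limit for the adjusted p the count was 6 (0.0212%), 3 in each direction, and 1554 features (5.48%) had an unadjusted p under 0.05. The median size of the difference over all features was 0.23 on the log2 scale, with a median standard error of 0.34, and 1764 features (6.22%) differed by 1 log2 unit or more. DESeq2 called 48 features, 32 higher and 16 lower in Cascades trees, and these included all 6. The p-values measure the spread between these trees, of which each pair of siblings shares a family.

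**Figure D1:**
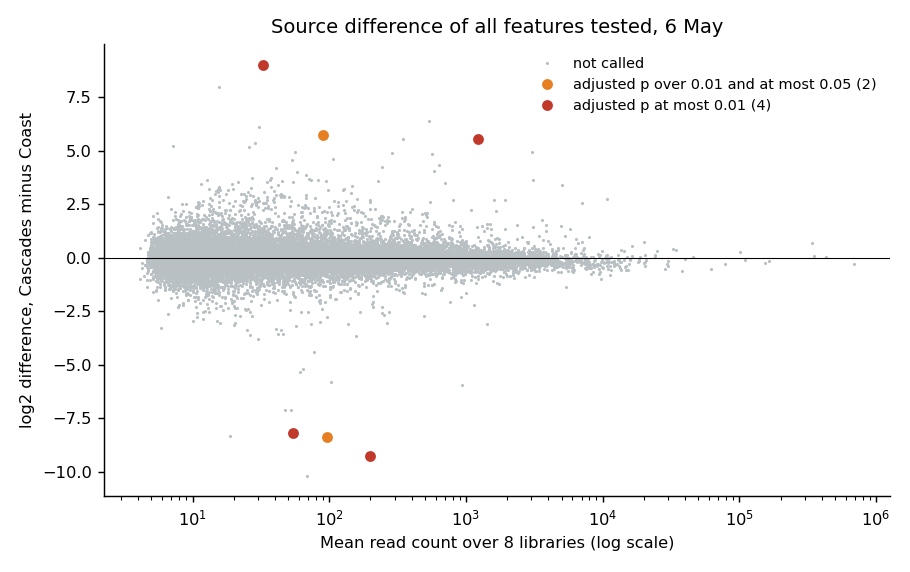
Each point is 1 of the 28359 features tested on 6 May. The horizontal axis is the mean read count over the 8 libraries on a log scale and the vertical axis the log2 difference, Cascades minus Coast. The 4 features in red have an adjusted p of at most 0.01 and the 2 in orange one over 0.01 and at most 0.05; several unmarked points lie as far from 0.

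The feature with the largest number of reads among those called was gene18452, which was strongly expressed in Cascades needles and weakly in Coast needles. Expression is given as CPM, counts scaled to a common library size with edgeR's TMM factors. It had 225, 198, 267 and 214 CPM in Cascades trees 05, 39, 08 and 38, against 6.84, 2.23, 4.84 and 5.41 CPM in Coast trees 10, 69, 12 and 68. Every Cascades tree was at least 28.9 times as high as any Coast tree. The means were 226 ± 29.7 CPM in Cascades trees and 4.83 ± 1.93 CPM in Coast trees (SD, n = 4 each), a log2 difference of 5.55 (standard error 0.36, edgeR adjusted p = 0.000591). Oregon trees 44, 90, 46 and 89 had 94.4, 157, 57.6 and 203 CPM, all far above the Coast trees and partly overlapping the Cascades trees.

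A second feature, gene32524, followed the same order at a lower level. It had 18.7, 14.0, 17.9 and 16.2 CPM in Cascades trees 05, 39, 08 and 38, against 0.495, 0, 0.651 and 0 CPM in Coast trees 10, 69, 12 and 68. The groups did not overlap, and the log2 difference was 5.73 (standard error 0.67). Its adjusted p of 0.0400 in edgeR passed the wider threshold only, and it did so in no fit without 1 tree (adjusted p from 0.0568 to 0.172 with the features held fixed) nor with a mean per family (0.228). Across the 15 Cascades libraries of all dates the reads of gene18452 were 9.27 to 15.0 times those of gene32524 (median 12.6), and across the 16 Oregon libraries 8.69 to 15.8 times (median 11.8). In these libraries the pair thus kept a narrow ratio while each varied between trees. In the Coast trees gene32524 was at 0 in 5 of 16 libraries, and its summed reads were 40, against 742 for gene18452. Without sequences it cannot be told whether the pair belongs to 1 gene or to related copies that share reads.

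The other feature called as higher was gene34447, which fell outside the rule for naming features (its mean count of 32.5 is under 50) and was singled out after its values were seen. It had 70, 73, 55 and 62 counts in Cascades trees 05, 39, 08 and 38, or 6.03, 7.39, 5.28 and 6.10 CPM, and 0 counts in all 4 Coast trees. Against a floor of 3 counts per library (a mean of 0.2997 CPM in the Coast libraries), the mean of the Cascades trees was at least 20.7-fold higher. The adjusted p in edgeR was 0.00867. With lane as a covariate the adjusted p was 0.0388 and with a mean per family it was 0.0466, so the call was lost in both. In the Oregon source it was a feature of a single tree. Tree 44 had 36 to 84 counts on the 4 dates, tree 46 had 0 or 1, and trees 89 and 90 had 0 on every date, so tree 44 and its sibling, tree 90, differed.

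In the opposite direction, gene26549 was nearly absent from Cascades needles. It had 0, 1, 1 and 0 counts in Cascades trees 05, 39, 08 and 38, against 506, 178, 504 and 385 counts in Coast trees 10, 69, 12 and 68. In CPM the Coast values were 41.7, 22.1, 46.9 and 38.6. The ratio of summed counts per library size, Coast over Cascades, was 809. The exact 95% interval, with the deposited values taken as sampled reads, was 224 to 6690 and covers counting error only. For gene26549 the log2 difference of -9.27 (standard error 0.54, edgeR adjusted p = 0.000454) gave the smallest adjusted p of all features. Oregon trees had 0 counts in 3 libraries and 1 in the library of tree 89.

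The second lower feature, gene37403, was likewise read almost exclusively in the Coast trees. It had 0, 0, 1 and 0 counts in Cascades trees 05, 39, 08 and 38, which is at most 0.0960 CPM, against 8.90, 7.19, 14.0 and 11.6 CPM in Coast trees 10, 69, 12 and 68. Summed over the trees this was 1 count in Cascades trees and 433 in Coast trees. The ratio of summed counts per library size, Coast over Cascades, was 446 (95% interval 79.6 to 17642, found in the same way). The log2 difference was -8.17 (standard error 0.61, edgeR adjusted p = 0.00142). No count was recorded in any of the 16 Oregon libraries.

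A further lower feature reached an adjusted p of 0.0381 in edgeR. It had 2 counts in all in the Cascades trees, against 86, 325, 256 and 95 counts in Coast trees 10, 69, 12 and 68. In the Oregon source it separated the families of siblings, with 44 to 162 counts in the 8 libraries of trees 46 and 89 and 0 to 4 in the 8 libraries of trees 44 and 90. Thus gene18452, gene32524, gene34447 and this feature were expressed in some or all Oregon trees, while gene26549 and gene37403 were at or near 0 there.

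**Figure D2:**
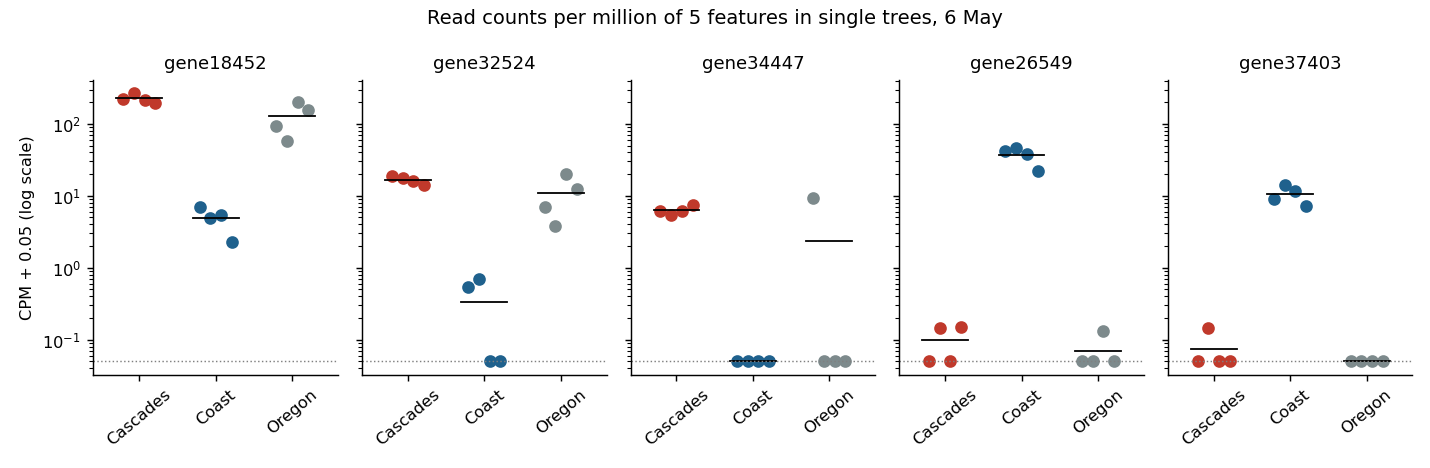
Points are single trees on 6 May and horizontal lines are means of the 4 trees, in CPM plus 0.05 on a log scale; the dotted line marks 0 counts. In each of the 5 features the 4 Cascades trees and the 4 Coast trees do not overlap, and the Oregon trees lie near the Cascades trees for gene18452 and gene32524 and near 0 for gene26549 and gene37403.

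The number of features called moved with single trees. Without tree 05 the count was 3, without tree 39, 08 or 38 it was 2, without tree 10, the pre-budbreak tree, or tree 69 it was 1, and without tree 12 or 68 it was 0. Part of this follows from the filter, because a feature that is at 0 in 1 source has a median count near 0 once a tree of the other source is left out. With the features held fixed at those of all 8 libraries, 2 features (gene18452 and gene26549) were called without any 1 Cascades tree, and 3 (these and gene37403) without any 1 Coast tree. The call of gene34447 was lost in all 8 of these fits (adjusted p from 0.0160 to 0.0663). Each lane alone, with 2 trees per source, gave 0 calls, and the log2 difference of gene18452 was 5.41 on lane 3 and 5.74 on lane 4, that of gene26549 -9.60 on lane 3 and -8.90 on lane 4.

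Because siblings share a family, the same comparison was also made with a mean per family, which measures the spread between siblings. It called 1 feature, gene26549 (adjusted p = 0.00859), and gene18452 had an adjusted p of 0.0134. With the counts of siblings added up, leaving 2 families against 2, edgeR called none of 34188 features, and 2077 of them had an unadjusted p under 0.05. In this edgeR fit gene18452 and gene26549 both had an adjusted p of 0.0244. The sizes hardly moved, with log2 differences of 5.50 for gene18452 and -9.47 for gene26549. Between the 2 families of a source edgeR called none of the 28359 features (0%), neither within the Cascades source (1051 with an unadjusted p under 0.05) nor within the Coast source (1137). DESeq2 called 33 and 34 there. Without the count filter edgeR called 498 and 651 of 69569 features between families. Between sources it called 14 of 69569, in the fit with a mean per source. The spread in that fit includes the spread between families, so the counts for families and sources are not comparable. The absence of family calls thus holds for edgeR with the filter only, since the DESeq2 fits used the same filter.

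The differences of the named features recurred on the other dates. The same trees gave 3 Cascades and 4 Coast libraries on 10 March, and 4 of each on 7 April and 17 June. In gene18452 the Cascades trees had 137 to 177 CPM on 10 March, 137 to 177 on 7 April, 198 to 267 on 6 May and 163 to 357 on 17 June. The Coast trees had 1.24 to 5.48, 1.53 to 5.49, 2.23 to 6.84 and 1.90 to 9.92 CPM on these dates. On none of the 4 dates did the sources overlap.

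The features read in Coast needles kept their pattern too, with lower values late in the season. In Cascades trees gene26549 had at most 10 counts in any of the 15 libraries and 0 in 8 of them. Coast trees had 27.7 to 60.1 CPM of it on 10 March, 40.5 to 51.9 on 7 April, 22.1 to 46.9 on 6 May and 16.1 to 30.3 on 17 June. The maximum for gene37403 in Cascades libraries was 3 counts, with 0 in 12 of 15, and for gene34447 in Coast libraries it was 1 count, with 0 in 14 of 16.

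Tested date by date, edgeR called 0 of 30857 features (0%) on 10 March, 6 of 31178 (0.0192%) on 7 April and 2 of 28634 (0.00698%) on 17 June. The sample labels give tree 38 a library on 17 June and none on 10 March, whereas the study's supplementary list has these dates the other way round. On 17 June no feature was called without tree 38, nor without tree 05, 69, 12 or 68. On 10 March 1436 features had an unadjusted p under 0.05, and DESeq2 called 52. The adjusted p of gene18452 was 0.0244, 0.00266, 0.000591 and 0.0131 on the 4 dates in order, and that of gene26549 was 0.0145, 0.00202, 0.000454 and 0.00790. Whether the source difference itself changed from 7 April to 6 May was tested in 1 fit of all dates, which did not pair the libraries of a tree. No feature of 29220 was called (0%) by edgeR, with 306 at an unadjusted p under 0.05, and none by DESeq2. With the tree as a block edgeR also called 0, with 922 at an unadjusted p under 0.05. In the unpaired fit the change for gene18452 was 0.06 log2 units (standard error 0.64), and for gene26549 it was -1.16 (standard error 1.09).

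**Figure D3:**
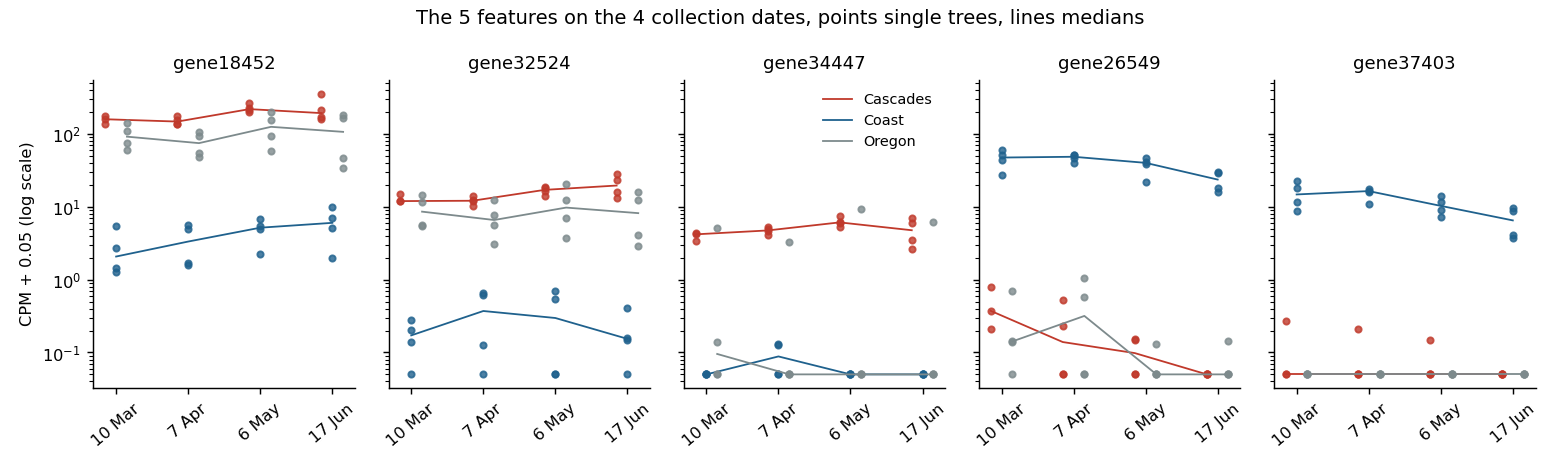
Values of the 5 features in single trees (points) and their medians per source (lines) on the 4 collection dates, in CPM plus 0.05 on a log scale. Cascades and Coast trees stay apart on each date in all 5 features, and gene34447 is seen in 1 of the 4 Oregon trees only, apart from a single count in tree 46 on 10 March.

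A wider view takes all features in which the 4 Cascades trees and the 4 Coast trees did not overlap in CPM on 6 May. In 376 features (1.33% of those tested) every Cascades tree was above every Coast tree, and in 483 (1.7%) every Cascades tree was below, 859 (3.03%) in all. In an exact permutation test (two-sided) a full separation of 4 trees from 4 has p = 0.0286. Trees without any source difference would thus give a share near this one. Their median size was 0.73 on the log2 scale, and 33 of them differed by 3 log2 units or more. On 7 April, 63 of the 376 were again without overlap in the same direction, which is 16.8% of the features of 6 May and 16.1% of those of 7 April, against 1.38% of all tested. For the lower features the number was 101 of 483 (20.9%, and 21.9% of those of 7 April), against 1.63% of all tested. On 17 June it was 71 of the higher (18.9%) and 65 of the lower features (13.5%), against 2.08 and 1.59% of all tested. On 10 March it was 62 (16.5%) and 84 (17.4%), against 2.82 and 2.33% of all tested. That date has 3 Cascades libraries, so a lack of overlap is reached more easily there. At most 3 features in any of these date and direction groups were without overlap in the opposite direction.

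The same trees stand behind every date, so this recurrence also holds what is particular to single trees. Of the 28359 features tested, 39 were without overlap in the same direction on all 4 dates, 18 higher and 21 lower in Cascades trees. Among the 39 were all 6 features called at the wider threshold. The median size of the 39 on 6 May was 2.53 on the log2 scale (0.49 to 10.18), and 17 of them differed by 3 log2 units or more. In 18 of the 39 the source with the lower level averaged under 1 CPM. The Oregon trees on 6 May were on average closer to the Cascades trees in 143 of the 376 higher features (38.03%) and in 254 of the 483 lower ones (52.6%), so they took the side of neither source throughout.

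Complete absence from 1 source was rarer. With 0 counts in all 4 trees of a source and at least 10 in every tree of the other, 2 features were missing from the Coast trees and 2 from the Cascades trees. Those missing from Coast trees were gene34447 and a feature with 20 to 51 counts in Cascades trees, which on the other dates had 25 to 216 counts in the 11 Cascades libraries and at most 1 in the 12 Coast libraries. The features missing from Cascades trees had 14 to 49 and 20 to 307 counts in Coast trees. In the 11 Cascades libraries of other dates the first of these was at 0 in 10 and reached 1 count, and the second was at 0 in 8 and reached 3 counts. In the 12 Coast libraries of other dates they had 8 to 97 and 3 to 419 counts, so the separation was less complete there. In the 16 Oregon libraries the first was at 0 in 15, and the second was present in all, with up to 369 counts. Only gene34447 of the 4 passed the test, and the adjusted p of the others lay between 0.106 and 0.473.

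Seen over all features, trees of different sources were hardly farther apart than trees of 1 source. The root mean square log2 difference between 2 trees averaged 0.963 over the 16 pairs of different sources (0.839 to 1.16), 0.941 over the 8 pairs of different families of 1 source (0.866 to 0.997) and 0.947 over the 4 pairs of siblings (0.815 to 1.09). All sibling pairs were on different lanes, and among the other pairs the mean was 0.941 for the 12 on the same lane and 0.970 for the 12 on different lanes, so kinship and lane cannot be told apart in the sibling pairs. The closest pair was trees 12 and 68, siblings of the Coast source, and the next was Cascades tree 39 with Coast tree 68. Siblings 10 and 69 of the Coast source were among the most distant, and they also differed in budbreak label. The biological coefficient of variation was 40.3% with a mean per source and 39.97% with a mean per family, so accounting for family left nearly all of the spread between trees.

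**Figure D4:**
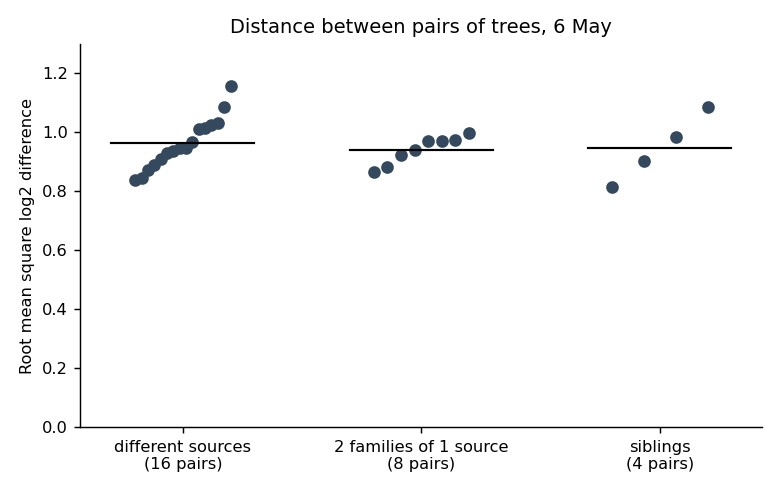
Each point is a pair of trees on 6 May and the vertical axis is the root mean square log2 difference over the 28359 features; horizontal lines are means. The 3 kinds of pair overlap, with means of 0.963 for different sources, 0.941 for families of 1 source and 0.947 for siblings.

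Single trees contributed much of this variation. Tree 05 of the Cascades source was at least 2-fold above or below all other 7 trees in 802 features (2.83% of those tested), against 186 to 307 in the other Cascades trees. In the Coast source trees 10 and 69 had 498 each and trees 12 and 68 had 271 and 284. On the first principal component (22.8% of the variance) tree 05 and Coast tree 69 lay at opposite ends, and neither this component nor the next (18.5%) separated the sources.

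The sources were also placed along the spring change of the needle transcriptome. As a scale, features were taken that differed between 10 March and 17 June in the Oregon trees, whose libraries are not among the 8. In edgeR 538 rose and 655 fell (1193 of 29175 features, 4.09%). A seasonal index was set to 0% at the Oregon mean of 10 March and to 100% at that of 17 June. On 6 May it was 77.8, 69.4, 77.3 and 57.6% in Cascades trees 05, 39, 08 and 38, and 63.6, 53.6, 61.0 and 72.3% in Coast trees 10, 69, 12 and 68. The Oregon trees had 76.4 to 86.0%. The mean was 70.5 ± 9.44% in Cascades trees and 62.6 ± 7.70% in Coast trees (SD, n = 4 each), a difference of 7.91 percentage points. It was 12.2 points without Cascades tree 38 and 4.90 without Coast tree 69, and 1.62 points with an index built on the features that changed between 7 April and 6 May. The groups overlapped, and 3 Cascades trees lay above 3 of the Coast trees with tree 38 and tree 68 as the exceptions. The pre-budbreak tree 10 was not the lowest Coast tree.

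Among the single features of this scale, those that fall in spring leaned to the Coast side. Of the 624 measured on 6 May, 204 (32.7%) were higher in Cascades trees, with a median log2 difference of -0.16, against 14180 of all 28359 features, whose median was 0.00. Of these, 39 were without overlap and lower in Cascades trees and 8 without overlap and higher, 7.53% in all against 3.03% of all features. Of the 526 measured features that rise in spring, 326 (62.0%) were higher in Cascades trees, with a median of 0.07. Of the 526, 8 were without overlap and higher and 1 without overlap and lower, 1.71% in all, below the 3.03% of all features. None of either list was called by edgeR, and 58 of the falling and 24 of the rising features had an unadjusted p under 0.05. Of all 28359 features, 1554 (5.48%) did.

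The index can be set beside that of the other dates. On 7 April it was 15.2 to 34.6% in Cascades trees and 13.0 to 25.7% in Coast trees. On 17 June it was 88.9 to 91.7% in Cascades trees and 89.5 to 91.4% in Coast trees. On 10 March it was -3.14 to 10.9% in Cascades trees and -5.26 to 10.8% in Coast trees. The range of the Coast trees was widest on 6 May. That of the Cascades trees was nearly as wide on 7 April as on 6 May, and on 17 June the trees of both sources lay close together.

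**Figure D5:**
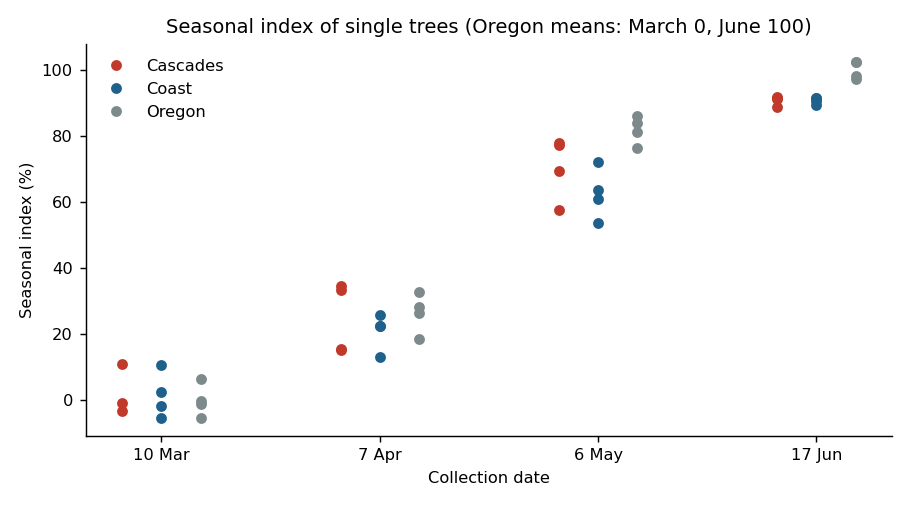
The seasonal index of single trees on the 4 dates, in percent of the way from the Oregon mean of 10 March (0) to that of 17 June (100). On 6 May the Cascades trees range from 57.6 to 77.8%, the Coast trees from 53.6 to 72.3% and the Oregon trees from 76.4 to 86.0%.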

How the data were processed

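Mature needles were profiled by strand-specific RNA-seq, 1 library per tree and date of 2011. Cascades families were 1147 (trees 05 and 39, seed from 977 m) and 1162 (08 and 38, 924 m), and Coast families 7202 (10 and 69, 71 m) and 7205 (12 and 68, 151 m). The authors deposited whole-number read counts per feature (90662 features, 47 columns), and CASAVA 1.8 and Bowtie2 are named in the submitters' processing notes. The counter and its reference are not stated in the sources read here. The totals of the deposited counts had been brought to nearly 1 depth (11293737 to 11301459 in the 8 libraries) by a step that is not stated, so added precision of deeper libraries is lost. Frequencies of neighbouring count values from 20 to 200 had a roughness of 0.765 to 1.00, where 1 is the value for sampled reads, and the values were used as counts.

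Features with a median count over 5 in the fitted libraries were tested with edgeR 4.0.16 in R 4.3.3 (TMM, quasi-likelihood, Benjamini-Hochberg over all features tested, two-sided), at an adjusted p of at most 0.01. Fits held the 8 libraries alone. CPM were computed with 1 TMM scaling over all 47 columns, so a ratio of CPM can differ slightly from the fitted difference. The rule named the 2 features with the largest rises and the 2 with the largest falls, a mean count no lower than 50 and no overlap between sources, filled up at 0.05 where fewer passed. The comparison, lists and rules were chosen with earlier results of these data known. Tree numbers mark the same tree on every date: deviations from the source and date means correlated across features by 0.569 on average over 45 same-tree pairs (0.317 to 0.744, all over 0.1), so the tree pairs the libraries. The 17 June library of tree 38 was used as labelled. The seasonal index is the mean log2 CPM of features that rose minus that of features that fell in Oregon trees between March and June, rescaled. Alternatives were DESeq2 1.42.0, other filters, scalings and thresholds, lane as a covariate or alone, family fits, the Oregon trees in the fit, and leaving out each tree. Fits with features held fixed were chosen after seeing the data. Tests were checked on simulated data.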

Additional observations from a re-analysis of the deposited data

Results flagged for a closer look

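Within a group of 4 trees, 3 values stood apart from the other trees of their source by Dixon's ratio, out of 19 groups of values examined. Chance gives about 1 in 20 for continuous values. That rate does not apply where all other trees of a group are at 0, because any count then gives a ratio of 1. Cascades tree 05 had 47973 detected features, against 46710 to 46872 in the other Cascades trees. The single count of gene37403 in Cascades tree 08 (0.0960 CPM) and the 2 counts of the further lower feature with an adjusted p of 0.0381 in Cascades tree 38 (0.197 CPM) stood apart from 0 in the other Cascades trees, and both are under the floor of 3 counts.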

How the results depend on the processing

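For the source difference on 6 May, 4 calls stood against 48 with DESeq2, 14 without a count filter, 1 with the Oregon trees in the fit, 0 on lane 3 or lane 4 alone, 1 with a mean per family and 0 with the counts of siblings summed. Without 1 tree there were 0 to 3 calls, and 2 to 3 with the features held fixed. With the Oregon trees and the features held fixed the count was 4 but without gene34447, whose adjusted p was 0.845. The other 6 alternatives (another scaling, filter or threshold, lane as a covariate, without the 50 most abundant features) gave 3 to 6.

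Between families, DESeq2 called 33 features within Cascades trees and 34 within Coast trees, and without a count filter edgeR called 498 and 651, of which 287 and 388 also passed the filter. Source calls on 10 March were 52 with DESeq2, 5 at 0.05 and 0 to 3 without 1 tree. On 7 April they were 43 with DESeq2 and 0 to 2 without 1 tree, and on 17 June 42 with DESeq2, 5 at 0.05 and 0 to 1 without 1 tree. With the tree as a replicate block, the change of the source difference from 7 April to 6 May still had 0 calls, with 922 features at an unadjusted p under 0.05. The other comparisons of Cascades and Coast trees hold each tree once, and the Oregon lists behind the seasonal index were not refitted with a block.

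The difference in detected features, 482 higher in Cascades trees, ranged from -95.7 to 788 without 1 tree and was -95.7 without Coast tree 69. That in the share of the 50 most abundant features, 0.815 percentage points, ranged from -2.19 to 3.15 and was -2.19 without Coast tree 10. Features at 0 in 1 source numbered 5 to 9 without 1 tree, where fewer trees must be at 0. The named features kept their direction in every alternative that gave a value. The cause was not tested for the other changes.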
